A study of Homo sapiens with 3 samples.

Results

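Expression of 10 neuropeptide genes of sympathetic neurons was studied in the neuroblastoma cell lines NGP and IMR-32 and in a reference pool. The genes were ADCYAP1, NPY, VIP, GAL, SST, TAC1, PENK, CARTPT, CALCA and CALCB, 10 of the 19775 genes measured. They were read from the probe sets that name the gene alone, 16 of 41091 such probe sets on the array. The genes were chosen by their role in sympathetic neurons and partly by measured values, because ADCYAP1 was known to be high in IMR-32 and dim in NGP, so the ADCYAP1 values are a description. Both lines are tumor cell cultures, and the pool is RNA from 16 different cancer cell lines, which the labels do not name. No treatment is stated for the lines or the pool. Each of the 3 samples was hybridized as polyA RNA to 1 Affymetrix U133 Plus 2.0 array. Each cell line stands for a single tumor, and NGP was grown in RPMI medium and IMR-32 in Minimum Essential Medium, so that line and medium cannot be told apart. The single arrays give no replicate check, and no p-value was computed.

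Sympathetic neurons store small peptides in dense-core vesicles next to noradrenaline and release them on strong stimulation. Each peptide is cut from a longer precursor by convertases in the vesicle and acts on receptors coupled to G proteins. NPY constricts vessels together with noradrenaline, galanin (GAL) acts on growth and survival of neurons, and PACAP, the product of ADCYAP1, raises cyclic AMP in its target cells and is known as a transmitter to chromaffin cells of the adrenal medulla. VIP, a close relative of PACAP, belongs to the cholinergic sympathetic neurons that supply sweat glands. SST (somatostatin) inhibits secretion, TAC1 encodes substance P, PENK the enkephalins, CARTPT the CART peptides, and CALCA and CALCB the α and β forms of calcitonin gene-related peptide (CGRP), the first together with calcitonin.

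The promoters shown here are those of ADCYAP1, the gene with the largest ratio between the lines, of its relative VIP, and of SST and CARTPT, which hold the cyclic AMP response element (CRE), the DNA site of CREB. Promoter sequences of 7 of the 10 genes were found in the RefSeq table (GRCh38.p14), with 2 start sites for ADCYAP1, and the 250 bases before each start were searched on both strands for the CRE, TGACGTCA, and for its shorter core, TGACG, which lies in the CRE on either strand and so overlaps it. Bases that matched are in capitals.
ADCYAP1, first start site, chr18:904621-904870, plus strand: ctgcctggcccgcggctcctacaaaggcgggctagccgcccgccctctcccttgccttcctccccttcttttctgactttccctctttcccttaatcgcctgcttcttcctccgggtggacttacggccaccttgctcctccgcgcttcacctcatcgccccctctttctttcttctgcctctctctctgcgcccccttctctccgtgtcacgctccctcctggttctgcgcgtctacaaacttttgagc
VIP, chr6:152750547-152750796, plus strand: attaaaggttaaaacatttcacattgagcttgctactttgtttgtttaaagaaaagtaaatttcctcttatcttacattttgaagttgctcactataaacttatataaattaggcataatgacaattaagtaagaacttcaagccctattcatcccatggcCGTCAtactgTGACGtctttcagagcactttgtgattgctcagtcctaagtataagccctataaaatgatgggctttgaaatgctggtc
SST, chr3:187670395-187670644, minus strand: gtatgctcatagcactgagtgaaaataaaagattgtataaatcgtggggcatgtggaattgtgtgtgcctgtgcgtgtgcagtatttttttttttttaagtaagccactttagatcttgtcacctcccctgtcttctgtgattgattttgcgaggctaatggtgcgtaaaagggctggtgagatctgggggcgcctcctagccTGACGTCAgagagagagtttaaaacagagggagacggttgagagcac
CARTPT, chr5:71719025-71719274, plus strand: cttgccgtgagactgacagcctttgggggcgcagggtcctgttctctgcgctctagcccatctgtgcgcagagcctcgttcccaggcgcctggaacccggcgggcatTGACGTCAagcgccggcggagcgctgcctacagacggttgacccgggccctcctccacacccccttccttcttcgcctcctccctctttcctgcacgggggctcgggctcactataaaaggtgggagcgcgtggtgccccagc
The whole CRE was found in SST, beginning 47 bases before the start, and in CARTPT, beginning 143 bases before it, and it was held by 1.65% of 35116 promoter windows of the same length. The core was found in 6 of the 7 genes, in ADCYAP1 at the second start site only. Counted by window, the core was in 6 of the 8 windows of these genes and in 21.2% of all windows. In VIP it occurred at 89 and 79 bases before the start, on opposite strands. TAC1 had the core at 197 and CALCA at 110 bases before the start. NPY and the first ADCYAP1 window had no match, and the second ADCYAP1 window had 1 core at 238 bases before its start. These are matches of letters, and binding was not measured. No promoter sequence was found for GAL, PENK and CALCB, so they were not searched.

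The deposited values are MAS5 signals on a linear scale, with a median of 98.8 in NGP, 89.9 in IMR-32 and 119 in the pool. Signals below the median of their array are called dim here, because the size of a ratio between dim signals is not firm. Expression ratios are log2 ratios of signals, the value of a gene is the median over its probe sets, and genes were counted as over- or underexpressed where their ratio was among the highest or lowest 7% of a comparison. These cut-offs were 1.84 and -2.88 in NGP over the pool. They were 1.68 and -2.83 in IMR-32 over the pool, and 1.95 and -1.84 between NGP and IMR-32. The median ratio of all genes was -0.22, -0.23 and 0.02 in these comparisons. Ratios of probe sets of the same gene had a standard deviation of 1.41, 1.31 and 1.28, or of 1.09, 0.97 and 0.86 where at least one of the signals compared was not dim. This is the only spread that can be had here, and it is technical. Of 11 measured sympathetic neuroblast markers, 11 were not dim in NGP, 10 in IMR-32 and 10 in the pool, with summed signals of 102609, 46496 and 14065. Over the pool, PHOX2A, HAND2, ISL1, DDC, STMN2 and ELAVL4 were overexpressed in both lines and GATA3, TH and DBH in NGP. GATA3 was close to both cut-offs, at 1.88 in NGP and 1.63 in IMR-32. The probe sets of DDC were at 0.25 and 3.62 in IMR-32, and those of DBH at 0.87 and 3.25 in NGP. In both cases only the second passed the cut-off. The 6 epithelial markers summed to 307 in NGP, 404 in IMR-32 and 66783 in the pool, and the 10 mesenchymal markers to 28364, 14824 and 40651. All 6 epithelial markers (EPCAM, CDH1, KRT8, KRT18, KRT19 and ESRP1) were underexpressed in both lines. Of the mesenchymal markers, COL1A2 was underexpressed in both lines, CD44 and YAP1 in NGP and COL3A1 in IMR-32. THY1 was overexpressed in IMR-32 at 1.72, but fell just short of the cut-off in NGP at 1.81. Between NGP and IMR-32, COL3A1 was at the upper and YAP1 at the lower end, and THY1 was at 0.09. Probe sets of CD44 ran from -6.26 to 2.22 in NGP over the pool. Those of COL3A1 ran from -5.15 to 2.81 in IMR-32 over the pool and from -1.80 to 4.51 in NGP over IMR-32. The part of such differences in the neuropeptide ratios was not tested.

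ADCYAP1, on chromosome 18, was bright in IMR-32 only, and it had the largest ratios of the 10 genes in IMR-32 over the pool and in NGP over IMR-32, though not in NGP over the pool. Its probe sets 206281_at and 230237_at had signals of 8.99 and 12.8 in NGP, 790 and 2153 in IMR-32, and 23.9 and 31.6 in the pool. The NGP and pool signals were dim in both probe sets, and both IMR-32 signals were well above the array median. In RNA of whole cultures, fewer cells with a transcript and less of it per cell cannot be told apart. IMR-32 over the pool was 5.05 and 6.09, or 33.0-fold and 68.1-fold, and the gene value of 5.57 was the 8th highest of 19775 genes. NGP over the pool was -1.41 and -1.30, from dim signals. NGP was lower than IMR-32 by 87.9-fold and 168-fold (log2 ratios of -6.46 and -7.39), and the gene value of -6.93 was the 14th lowest. When dim signals were set to the median of their array, a setting chosen after the values were seen, IMR-32 still exceeded the pool by 3.45 and NGP over IMR-32 was -3.72, both beyond the cut-offs under that setting (0.91 and -0.77).

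Signals of the 16 probe sets ran from 1.99 to 19986, and most were dim. Of the 16, 4 were at or above the array median in NGP (NPY, GAL and CALCB), 7 in IMR-32 (ADCYAP1, NPY, VIP, GAL and PENK) and 5 in the pool (NPY, GAL, PENK and CARTPT). SST, TAC1 and CALCA were dim in every array.

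**Figure D1:**
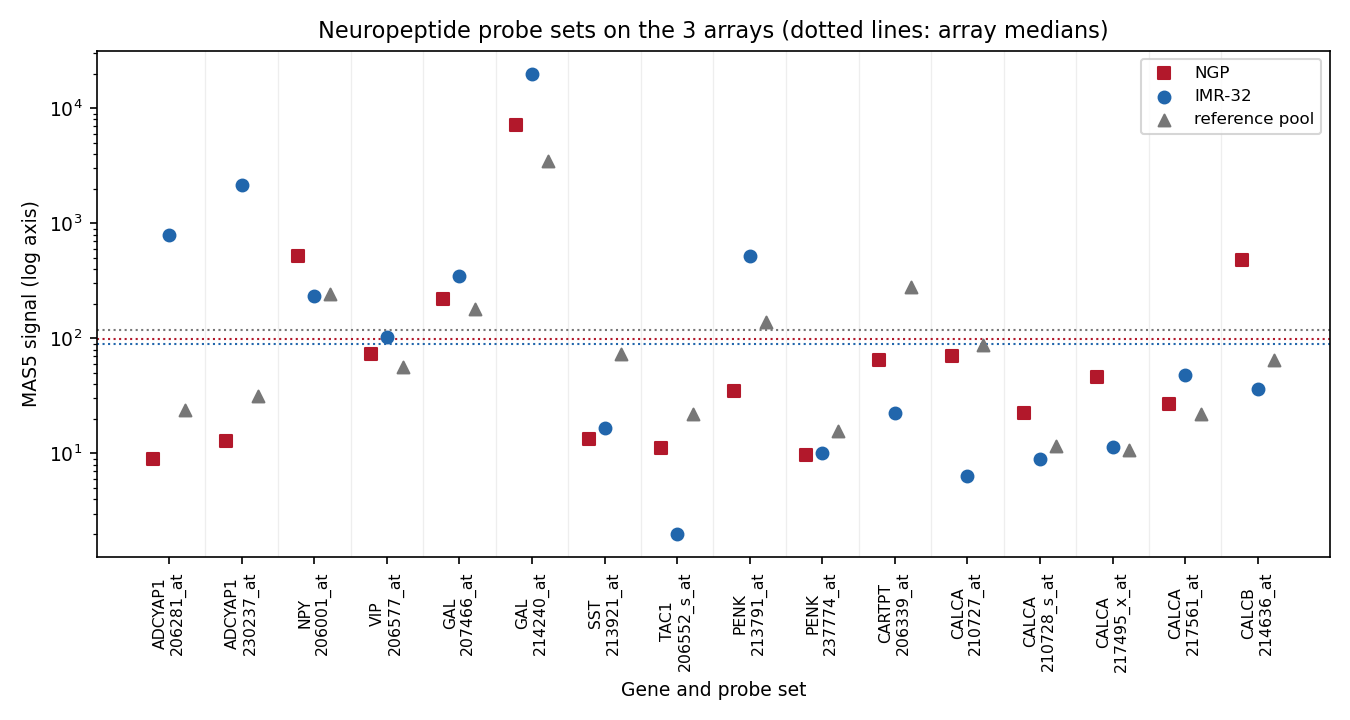
MAS5 signals (y-axis, log scale) of the 16 neuropeptide probe sets (x-axis) on the arrays of NGP (squares), IMR-32 (circles) and the reference pool (triangles), 1 array each, with the array medians as dotted lines. The ADCYAP1 probe sets reach 790 and 2153 in IMR-32 and are at most 31.6 in NGP and the pool.

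GAL and NPY were the only members above the array median in every array. GAL had signals of 7177 in NGP, 19986 in IMR-32 and 3476 in the pool with probe set 214240_at, and of 219, 349 and 181 with 207466_at. The signals fell in the order IMR-32, NGP, pool in both probe sets, but there are no repeat arrays to show whether this order is firm. IMR-32 over the pool was 2.52 and 0.95, with a gene value of 1.73 (3.33-fold), just above the cut-off of 1.68. NGP over the pool was 1.05 and 0.27, with a gene value of 0.66, below the standard deviation of 1.09 between probe sets that are not dim. NGP over IMR-32 was -1.48 and -0.67, with a gene value of -1.08. Neither gene value passed a cut-off. Only 214240_at passed the IMR-32 cut-off, and the call of the gene was lost with quantile-normalized arrays (1.86, cut-off 1.98), with the top and bottom 5% and with other changes of the cut-off.

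NPY, with the single probe set 206001_at, had a signal of 520 in NGP, 234 in IMR-32 and 245 in the pool. The NGP signal was the highest. IMR-32 and the pool could not be put in order (-0.07, which turned positive with median-centred ratios, 0.16, and with quantile-normalized arrays, 0.12). NGP over the pool was 1.08 (2.12-fold) and NGP over IMR-32 was 1.15 (2.22-fold), both below the cut-offs. The ratio between the lines exceeded the standard deviation of 0.86 between probe sets that are not dim, but not that of 1.28 between all probe sets. The ratio of NGP over the pool was below both deviations of that comparison (1.09 and 1.41). These deviations are between probe sets of other genes and not between repeat arrays, so they cannot settle the order of the arrays.

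VIP, the relative of ADCYAP1 with the promoter shown above, was dim in NGP and the pool and just above the array median in IMR-32, with a signal of 73.3 in NGP, 103 in IMR-32 and 56.3 in the pool. Over the pool the ratio was 0.38 in NGP and 0.88 in IMR-32, and between NGP and IMR-32 it was -0.50. All of them were below the standard deviation between probe sets, and without repeat arrays the 3 arrays could not be put in order. VIP had no ratio of the size seen for ADCYAP1.

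PENK was divided between its probe sets. Probe set 213791_at had a signal of 34.8 in NGP, 516 in IMR-32 and 138 in the pool, whereas 237774_at was dim in all arrays, with 9.69, 10.0 and 15.8. With the first, IMR-32 over the pool was 1.90 and NGP was 14.8-fold lower than IMR-32 (-3.89). With the second the same ratios were -0.66 and -0.05. The gene value over the pool was -1.35 in NGP and 0.62 in IMR-32, and between NGP and IMR-32 it was -1.97, the last within the bottom 7%. That call was lost with the top and bottom 5% (cut-off -2.20), with cut-offs over all probe sets, and when _s_at and _x_at probe sets were dropped, which put the cut-off at -2.03. When the brightest probe set was used, or dim ones were left out, PENK was overexpressed in IMR-32 (1.90).

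CALCB had a signal of 481 in NGP, 36.0 in IMR-32 and 65.2 in the pool with its single probe set 214636_at. Only the NGP signal was above the array median. NGP over the pool was 2.88 (7.37-fold) and NGP over IMR-32 was 3.74 (13.4-fold), both within the top 7%, while IMR-32 over the pool was -0.86 from dim signals. With dim signals set to the array median the ratios were 2.01 for NGP over the pool and 2.42 for NGP over IMR-32, again beyond the cut-offs of that setting (0.90 and 0.77). CALCB was high in the line in which ADCYAP1 was dim.

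CALCA, next to CALCB in the order of measured genes on chromosome 11, was dim with all of its 4 probe sets. Probe sets 210727_at, 210728_s_at, 217495_x_at and 217561_at had signals of 69.9, 22.5, 45.7 and 27.1 in NGP. In IMR-32 they had 6.40, 8.90, 11.3 and 47.8, and in the pool 88.1, 11.7, 10.8 and 22. NGP was above IMR-32 in 3 of the 4. NGP over IMR-32 was 3.45, 1.34, 2.01 and -0.82 in the same order, with a median of 1.67 that did not pass the cut-off, whereas the brightest probe set alone (3.45) did. The ratio over the pool was 0.62 in NGP, with probe sets from -0.34 to 2.08, and -0.17 in IMR-32, with probe sets from -3.78 to 1.12. With the brightest probe set alone these were -0.34 in NGP, which turns the sign, and -3.78 in IMR-32, where CALCA was then underexpressed. CALCA and CALCB are related in sequence, and how far their probes share targets was not tested.

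SST, TAC1 and CARTPT had negative ratios over the pool in both lines, mostly from dim signals, and 2 of these ratios passed a cut-off, those of TAC1 and CARTPT in IMR-32. CARTPT had a signal of 64.2 in NGP, 22.4 in IMR-32 and 281 in the pool, of which only that of the pool was above the array median. The ratio over the pool was -2.13 in NGP and -3.65 in IMR-32, where CARTPT was underexpressed (12.5-fold lower). With dim signals set to the array median the ratio was -1.51 in NGP and -1.64 in IMR-32, both past the lower cut-offs of that setting (-1.35 and -1.38). TAC1 had a signal of 11.2 in NGP, 1.99 in IMR-32 and 21.9 in the pool with 206552_s_at, a probe set type that can match other transcripts. Its ratio over the pool of -0.97 in NGP was below the standard deviation between probe sets. It was underexpressed in IMR-32 (-3.46) and passed the upper cut-off in NGP over IMR-32 (2.50), but with log2(signal + 32) these ratios shrank to -0.67 and 0.35 and neither call held. SST had a signal of 13.3 in NGP, 16.7 in IMR-32 and 72.6 in the pool. Its ratios over the pool were -2.45 in NGP and -2.12 in IMR-32, within the cut-offs. Setting dim signals to the array median replaces every SST signal, so that setting says nothing about SST. The genes with a whole CRE in the promoter shown above, SST and CARTPT, were not above the pool in either line. Promoters of GAL, PENK and CALCB were not searched, and a relation of the CRE to expression was not tested.

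As a group the 10 genes had ratios of either sign. The ADCYAP1 counts are part of how the genes were chosen, so nothing is read from them. In NGP over the pool, 1 of the 10 was overexpressed (CALCB) and 0 were underexpressed, beside a background of 7.0% of genes per direction, which holds for each comparison because it is set by the cut-offs. For IMR-32 over the pool, 2 of the 10 were overexpressed (ADCYAP1 and GAL) and 2 underexpressed (TAC1 and CARTPT). In NGP over IMR-32, 2 were at the upper end (TAC1 and CALCB) and 2 at the lower end (ADCYAP1 and PENK). The median ratio of the 10 genes was -0.29, -0.12 and 0.41 in these comparisons, beside -0.22, -0.23 and 0.02 for all genes. Over the pool, 2 genes had positive ratios in both lines (VIP and GAL), 3 had negative ratios in both, and 5 had opposite signs in NGP and IMR-32, or 3 with median-centred ratios or quantile-normalized arrays (ADCYAP1, PENK and CALCB). The share of all genes with opposite signs was not computed, so these counts are not read as a trait of the 10 genes.

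**Figure D2:**
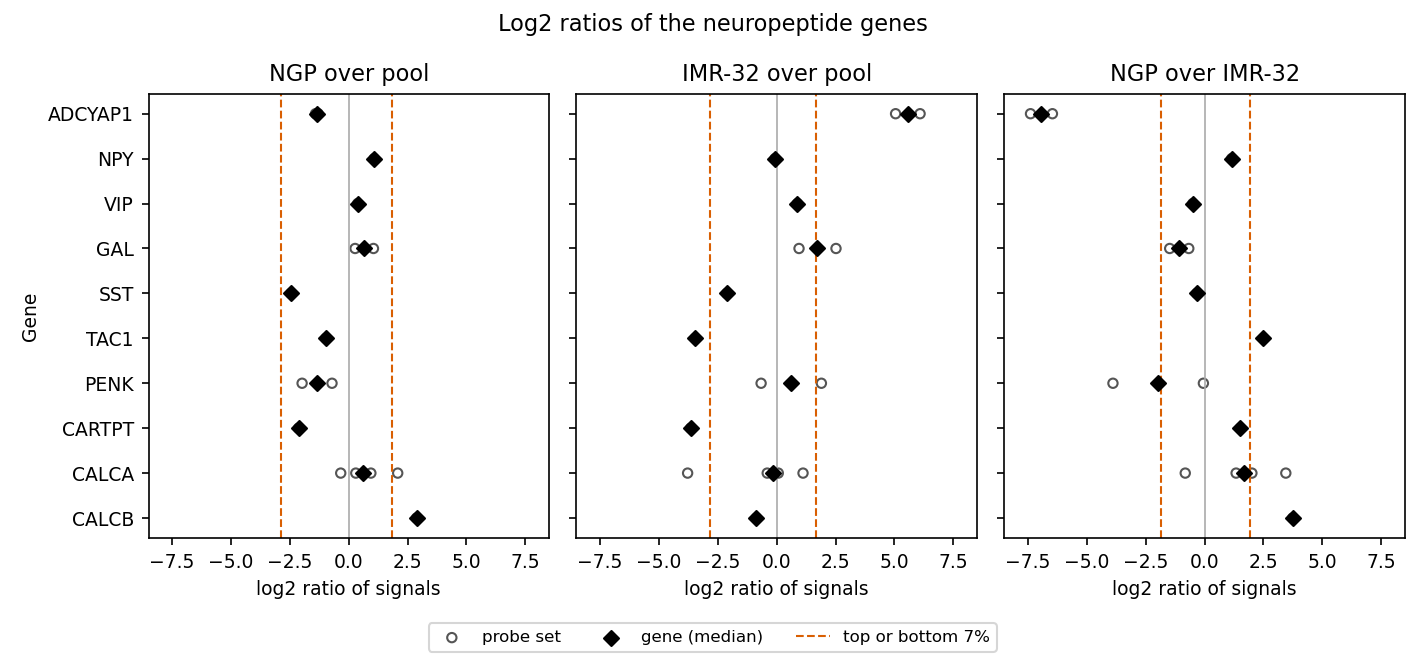
Log2 ratios (x-axis) of the 10 neuropeptide genes (y-axis) in the 3 comparisons, one to a panel, with probe sets as open circles, the gene value (median) as a diamond and the top and bottom 7% cut-offs as dashed lines. ADCYAP1 lies at 5.57 in IMR-32 over the pool and at -6.93 in NGP over IMR-32, where CALCB lies at 3.74.

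**Figure D3:**
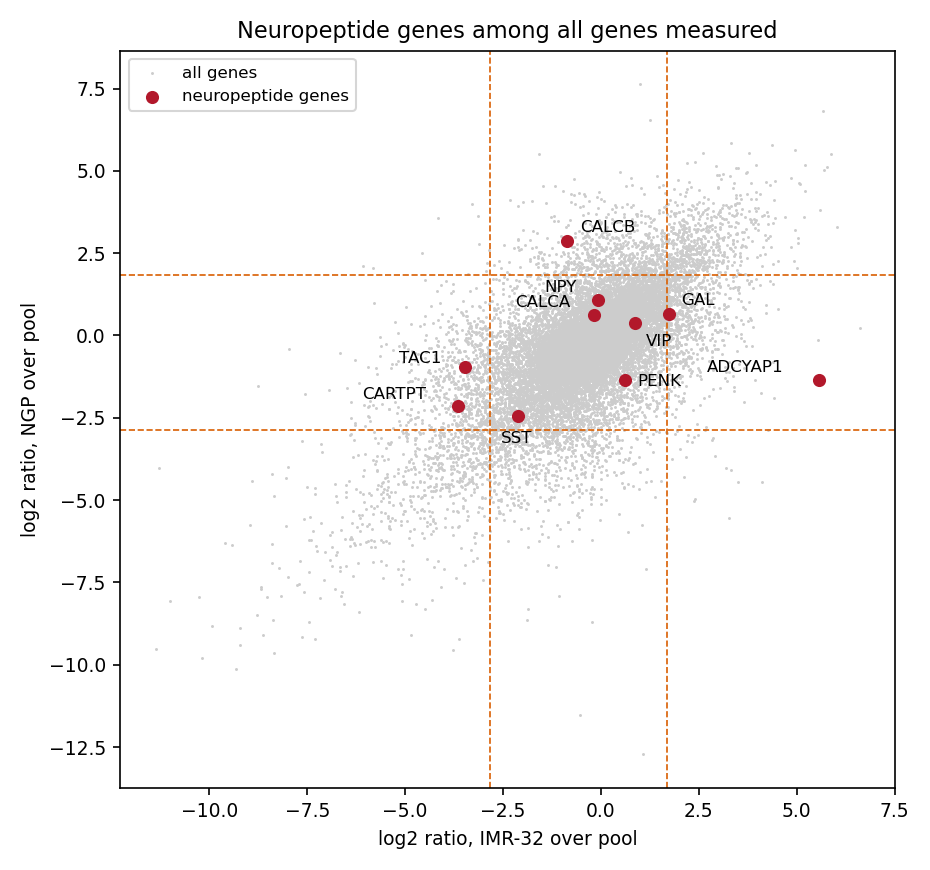
Log2 ratio of IMR-32 over the pool (x-axis) against that of NGP over the pool (y-axis) for all genes (grey) and the 10 neuropeptide genes (red), with the 7% cut-offs of each line dashed. ADCYAP1 lies apart at the right (5.57 in IMR-32, -1.36 in NGP), CALCB is above the NGP cut-off, and TAC1 and CARTPT are left of the lower IMR-32 cut-off.

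The genes with ratios most like those of the overexpressed members were looked up by the distance between the 2 ratios over the pool, among 14523 genes whose higher signal of a line and the pool was not dim in NGP or in IMR-32. Nearest to ADCYAP1 were NHLH1, a neuronal basic helix-loop-helix factor, at a distance of 1.21 (-0.15 in NGP and 5.53 in IMR-32), ALX1 at 1.28 and FBXO43 at 1.31. GAL had CTDSPL2 and FAM171A1 at 0.05 and TMTC4 at 0.07, and CALCB had CYRIA at 0.01 and GBX2 and PSMD9 at 0.07. The likeness rests on 3 arrays and describes these arrays.

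Of the receptors, ADCYAP1R1, the receptor specific for PACAP, was overexpressed in both lines. Its brightest probe set had a signal of 572 in NGP, 1254 in IMR-32 and 121 in the pool, and the gene values were 2.69 in NGP and 3.42 in IMR-32. IMR-32 was bright for both peptide and receptor, and NGP for the receptor alone. The receptors that PACAP shares with VIP differed. VIPR1 was underexpressed in both lines (-4.44 in NGP and -3.62 in IMR-32), with a signal of 15.3 in NGP, 27.1 in IMR-32 and 333 in the pool. VIPR2 was at 1.78 over the pool in NGP, with probe sets from -0.59 to 2.90, and at -1.13 in IMR-32. Between the lines it was higher in NGP by 2.91, within the top 7%, and all of its 3 probe sets had this direction (1.75 to 3.70).

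The somatostatin receptor SSTR2 was overexpressed in IMR-32 (3.80), with a signal of 522 in NGP, 4158 in IMR-32 and 361 in the pool. All of its 3 probe sets were lower in NGP than in IMR-32, from -3.78 to -2.74, while SST itself was dim in both lines. Of the NPY receptors, NPY2R was overexpressed in NGP (3.20), with a brightest signal of 474 in NGP, 98.2 in IMR-32 and 51.7 in the pool, but NGP over IMR-32 ranged from -0.71 to 10.01 over its 3 probe sets. NPY1R was underexpressed in both lines, with a signal of 4.45 in NGP, 1.37 in IMR-32 and 148 in the pool. GALR2 and OPRK1, a galanin and an opioid receptor, were at the lower end in NGP over IMR-32 (-2.72 and -2.23), with signals of 18.3 and 69.2 in NGP and of 121 and 116 in IMR-32. The probe sets of OPRK1 were at -3.70 and -0.75, and the OPRK1 signals given are those of the second, which did not pass the cut-off. Over all 25 measured receptor genes, 4 were overexpressed and 2 underexpressed in NGP, 3 and 2 in IMR-32, and 5 were at the upper and 3 at the lower end in NGP over IMR-32. Their median ratios were 0.12, -0.51 and 0.32. For CGRP, whose receptor is CALCRL with RAMP1, CALCRL, picked after its values were seen, had a brightest probe set that was dim in every array (50.9 in NGP, 5.96 in IMR-32 and 51.0 in the pool), and it passed the upper cut-off in NGP over IMR-32 (2.51, with probe sets from 2.40 to 3.10). RAMP1, also picked after its values were seen, was bright in every array, with 772 in NGP, 499 in IMR-32 and 1446 in the pool, and was not called.

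**Figure D4:**
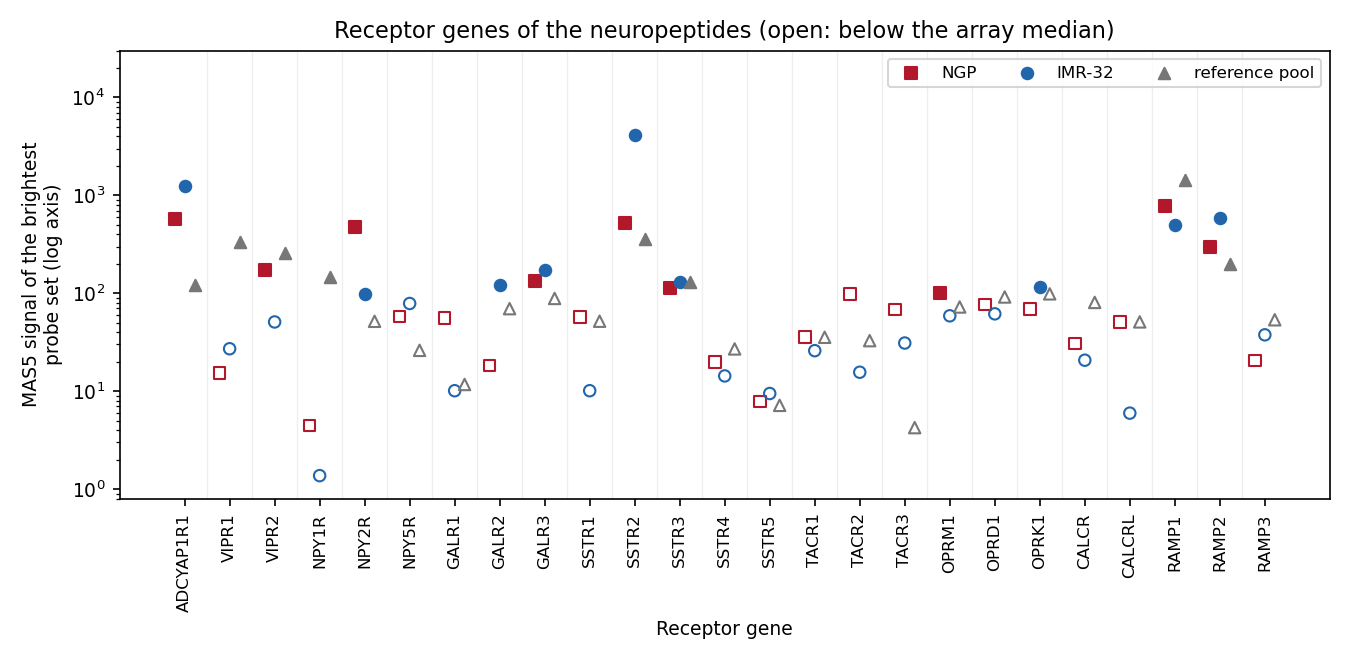
MAS5 signals (y-axis, log scale) of the brightest probe set of 25 receptor genes (x-axis) on the arrays of NGP (squares), IMR-32 (circles) and the reference pool (triangles), with open symbols below the array median. ADCYAP1R1 is bright in both lines (572 in NGP and 1254 in IMR-32), and SSTR2 reaches 4158 in IMR-32.

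Of 11 measured genes of precursor processing, 0 were over- or underexpressed against the pool in either line, with medians of -0.06 in NGP and -0.53 in IMR-32. Among them, picked after their values were seen, the carboxypeptidase CPE had signals of 2918 in NGP, 4402 in IMR-32 and 2285 in the pool, and the amidating enzyme PAM 2639, 1599 and 3508, so that both were bright in all arrays. PCSK7, a convertase of the secretory pathway, was at the lower end in NGP over IMR-32 (-1.96), with probe sets at -3.35 and -0.57. PCSK1 and PCSK2 were not analysed here. Of 8 peptidases that break peptides down, MME (neprilysin) was underexpressed in both lines (-5.57 in NGP and -7.59 in IMR-32), as was DPP4 (-5.93 in NGP and -6.14 in IMR-32), and NLN (neurolysin) was overexpressed in NGP (1.92), though its 6 probe sets ran from -0.31 to 3.44. The signals of MME and DPP4 were 44.3 and 6.17 in NGP, 17.9 and 62.9 in IMR-32, and 1470 and 376 in the pool, so that both were dim in the lines. In all, 1 of the 8 was overexpressed and 2 were underexpressed in NGP, and 0 and 2 in IMR-32.

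Some peptide genes outside the 10 also differed between the lines. CRH, the corticotropin-releasing hormone, had a signal of 4798 in NGP, 82.1 in IMR-32 and 127 in the pool, and its 2 probe sets were at 5.87 and 6.22 in NGP over IMR-32. ADM (adrenomedullin), a relative of CGRP, had a signal of 3964 in NGP, 197 in IMR-32 and 1048 in the pool, and NGP over IMR-32 was 4.33. ADM2 was underexpressed in NGP (-3.10), and GCG, of the PACAP family, was underexpressed in both lines (-3.60 in NGP and -3.82 in IMR-32), where its signals were dim. UCN (urocortin), a relative of CRH, was overexpressed in IMR-32 (2.00) and at the lower end in NGP over IMR-32 (-1.92), with a signal of 159 in NGP, 600 in IMR-32 and 150 in the pool. NPW was overexpressed in both lines (3.65 in NGP and 3.35 in IMR-32), and PMCH and AGRP were at the lower end in NGP over IMR-32 (-3.45 and -1.97). Of the 21 measured peptide genes of other families, 3 were overexpressed and 1 underexpressed in NGP, and 3 and 0 in IMR-32. Of the 13 measured relatives of the 10 genes, 3 were overexpressed and 3 underexpressed in NGP, and 0 and 2 in IMR-32.

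Of the 11 sympathetic markers, 5 were at the upper end in NGP over IMR-32 (GATA2, TH, DBH, DDC and STMN2) and 0 at the lower end, and of 4 cholinergic genes 0 were at the upper and 2 at the lower end (CHAT and SLC18A3). TH, the rate-limiting enzyme of noradrenaline synthesis, had a signal of 4379 in NGP, 103 in IMR-32 and 271 in the pool, while CHAT, the enzyme of acetylcholine synthesis, had 8.42 in NGP, 329 in IMR-32 and 21.5 in the pool. The vesicular acetylcholine transporter SLC18A3 had 27.3 in NGP, 461 in IMR-32 and 109 in the pool, and the brightest probe sets of SLC5A7 and ACHE were dim in every array. Cytokines of the LIF family are known to induce VIP and a cholinergic state in rodent sympathetic neurons. Of their receptor genes, picked after the values were seen, LIFR, IL6ST and CNTFR were bright in all arrays and not called. LIF, the ligand, was underexpressed in both lines (-4.59 in NGP and -3.92 in IMR-32), as were OSMR (-3.05 in NGP and -3.17 in IMR-32) and IL6R (-4.43 in NGP and -2.83 in IMR-32, at its cut-off). Over the 8 genes of this list, 0 were overexpressed and 3 underexpressed in NGP, and 1 and 3 in IMR-32. The 1 overexpressed in IMR-32 was the ligand CNTF, with ratios over the pool of 1.73 in IMR-32 and 1.32 in NGP from dim signals.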

How the data were processed

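Signal intensities on a linear scale were deposited by the authors, who computed them with MAS5 in affy (version not given in the sources used here), and each array has a trimmed mean of 500.0 with 2% of signals left out at either end. Of 54675 probe sets, 41091 named 1 gene in the platform annotation and were used, of which 41037 matched the RefSeq gene table. Log2 ratios had no pseudocount. The members and gene lists were chosen with earlier results of these data known. The other lists name every gene called in any comparison whose higher signal (brightest probe set, by mean log2 signal) was not dim, and overexpressed members have their 3 nearest genes. PCSK1, PCSK2, NPY4R, PPY, SCT, TAC4 and QRFP were not analysed here, nor were copy number data. Alternatives were 10 settings, and 1 more chosen after seeing the data. The ratio step was tested on simulated data. The number of arrays limits the precision. Software was matplotlib 3.10.9, SciPy 1.17.1, pandas 2.3.3 and numpy 2.4.6 under Python 3.11.15.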

Additional observations from a re-analysis of the deposited data

Results flagged for a closer look

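In 5 of the 10 genes the ratio over the pool had opposite signs in NGP and IMR-32, with 1 array per line, and the difference was not tested. How often all genes had opposite signs was not computed, so the count has no background beside it and is a description. NGP over IMR-32 was -6.93 for ADCYAP1, -1.97 for PENK, 1.15 for NPY, 1.67 for CALCA and 3.74 for CALCB. With median-centred ratios or quantile-normalized arrays the count fell to 3 (ADCYAP1, PENK and CALCB), since NPY and CALCA were then positive in both lines, and with the brightest probe set it was 4, with CALCA negative in both. For NPY the IMR-32 ratio was close to 0 (-0.07), and the CALCA signals were dim in all arrays.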

How the results depend on the processing

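Of 314 gene ratios recomputed under the 11 alternatives, 283 kept their sign and their side of the cut-off. A further 11 lost a call, 10 gained one, 10 ratios that were not called changed sign, and 0 called ratios were reversed. Part of this agreement was fixed in advance. Settings that move only the cut-offs leave the ratio and its sign unchanged, and median-centring cannot change a call. For the 6 genes with 1 probe set, the brightest probe set and the mean return the same ratio. ADCYAP1 kept its calls in IMR-32 over the pool (3.45 to 6.09) and in NGP over IMR-32 (-7.39 to -3.72) in every setting. The genes were chosen partly for these ADCYAP1 values, so this is a description. CALCB also kept its calls in NGP over the pool (2.01 to 3.13) and over IMR-32 (2.42 to 3.74). It has 1 probe set, so settings that choose or drop probe sets returned the same ratios of 2.88 and 3.74. In IMR-32 over the pool the overexpressed members fell to 1, ADCYAP1, with quantile-normalized arrays, without _s_at and _x_at probe sets, with cut-offs over all probe sets and with the top and bottom 5%, where GAL was lost. The underexpressed ones fell to 1, CARTPT, with log2(signal + 32), without dim probe sets, without _s_at and _x_at probe sets and with dim signals set to the array median. In NGP over IMR-32 the upper end held 1 gene, CALCB, with log2(signal + 32), without dim probe sets and without _s_at and _x_at probe sets, and the lower end 1, ADCYAP1, without _s_at and _x_at probe sets, with cut-offs over all probe sets and with the top and bottom 5%. In NGP over the pool, 1 gene was underexpressed with the top and bottom 10% (SST) and 1 with dim signals set to the array median (CARTPT), where 2 were overexpressed (NPY and CALCB). Counts also rose to 3, in IMR-32 over the pool with PENK overexpressed (brightest probe set or dim ones left out) and CALCA underexpressed (brightest probe set), and in NGP over IMR-32 with CALCA at the upper end (brightest probe set or top and bottom 10%) and GAL at the lower end (dim signals at the array median). Leaving out _s_at and _x_at probe sets removes the only TAC1 probe set. The setting with dim signals at the array median was chosen after seeing the data. Where both signals of a ratio are dim, it leaves only the ratio of the array medians, which says nothing about the gene. The cause of the other changes was not tested. No paired analysis was possible because there is 1 array per sample. Dim signals limit 12 of 16 probe sets in NGP, 9 in IMR-32 and 11 in the pool.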

Other observations

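YES1, a kinase gene that is the nearest measured gene before ADCYAP1 in the reference gene order and was picked after its values were seen, was also far lower in NGP than in IMR-32. Its probe sets 202932_at and 202933_s_at had signals of 2.96 and 33.1 in NGP, 1585 and 2945 in IMR-32, and 3504 and 4345 in the pool, while the third, 210917_at, was dim in every array. TYMS, the next gene on that side, was at -0.68 in NGP over the pool and 0.31 in IMR-32 over the pool, and LINC01904 and LINC00470, on the other side of ADCYAP1, at -0.82 and -1.07 in NGP and -0.50 and -0.82 in IMR-32.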
